A study of Mus musculus with 6 samples.

Results

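The genes described here encode the intermediate filament proteins of astrocytes and the protein that links these filaments to other structures. There are 8: the cytoplasmic filament genes Gfap, Vim, Nes and Synm, the nuclear lamin genes Lmna, Lmnb1 and Lmnb2, and the linker gene Plec. They were found by symbol among the 13970 genes that the authors' deposited tables list, and all 8 stood in the table of 13278 genes detected with both extractions, while 0 stood among the 617 optimized-only and 0 among the 75 standard-only genes. The tables print their symbols in capitals, as GFAP, VIM, NES, SYNM, LMNA, LMNB1, LMNB2 and PLEC. The members were chosen by family with these same log2 ratios already known, so the ratios are a description and carry no test.

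The study compared 2 ways of opening primary astrocytes before heavy RNA-protein complexes, ribosomes and polyribosomes among them, were pelleted through sucrose and their RNA was sequenced. In the optimized group (3 libraries, batches A, B and C), cells were lysed on the plate in a buffer with the mild detergent dodecyl maltoside (DDM) and more salt. In the standard group (3 libraries, batches A, B and C), scraped cells were frozen as pellets, thawed and then opened with Triton X-100 plus deoxycholate at lower salt. Both groups held untreated astrocytes of strain C57BL, genotype C57BL/6JOlaHsd, taken at the newborn stage (P0-P2) from males and females pooled, and both lysis buffers contained cycloheximide, which holds ribosomes on mRNA. The design text calls the batches biological repetitions, and the labels do not say how many animals gave the cells of a batch. The table gives 1 log2 ratio per gene, optimized over standard, with no value per library and no error. The spread between batches, the depth of each library and the level of each mRNA are therefore unknown here, and no gene could be tested.

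Intermediate filaments are rope-like polymers that give cells mechanical strength. Their subunits share a central coiled-coil rod, and they differ in the head and tail on either side of it. In astrocytes glial fibrillary acidic protein (Gfap) and vimentin (Vim) form the main cytoplasmic network, and nestin (Nes), a marker of neural progenitors and of reactive or immature astrocytes, and synemin (Synm) join it as partners that do not readily form filaments alone. The lamins form a meshwork under the inner nuclear membrane. Plectin (Plec), a giant member of the plakin family, ties intermediate filaments to actin, microtubules and membrane junctions.

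The filament genes share a conserved stretch at the end of the rod, and the length of coding sequence that follows it differs between them. The 42 coding bases of Gfap, Nes and Synm below, shown for a short-tailed filament gene and the long-tailed pair, hold the helix termination motif, the most conserved stretch of the rod, with its 8 codons in capitals. They come from GENCODE M21 transcripts on GRCm38, run 5′ to 3′ on the coding strand, and each crosses 1 splice junction, so the interval given holds an intron. The intervals are chr11:102891954-102893075 for Gfap on the minus strand, chr3:87973103-87974829 for Nes on the plus strand and chr7:67739148-67751817 for Synm on the minus strand.
Gfap: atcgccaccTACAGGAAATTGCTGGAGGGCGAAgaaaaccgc
Nes: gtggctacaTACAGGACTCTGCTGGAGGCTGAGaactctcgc
Synm: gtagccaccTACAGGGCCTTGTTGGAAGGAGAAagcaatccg

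Of the 24 bases in capitals, Nes shares 18 with Gfap, and Synm also shares 18 with Gfap. The motif was present in 7 of the 8 members and had no match in Plec, which is not a filament subunit. Among 12617 coding genes with a ratio, 24 (0.190%) held a match to it, searched as the residue pattern YxxLLExE with x for any residue. These were the 7 members, 3 further intermediate filament genes (Nefl, Nefm and Krt10) and 14 other genes. The filament genes Iffo1, Iffo2 and Sync had a ratio but no match to that pattern.

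What follows the motif differs between the subgroups. In Gfap and Vim it ends 86.0% and 87.3% of the way along the coding sequence, which leaves 180 and 177 bases for the tail. In Lmna, Lmnb1 and Lmnb2 it ends at 57.6%, 65.5% and 63.1%, with 846, 609 and 660 bases after it. In Nes and Synm the motif ends at 16.6% and 20.4%, and 4662 and 3729 coding bases follow. The full coding sequences, without the stop codon, measure 1290 bases in Gfap, 1398 in Vim, 5592 in Nes, 4683 in Synm, 1995 in Lmna, 1764 in Lmnb1, 1788 in Lmnb2 and 14058 in Plec. In Nes, Synm and Plec a single exon carries 4607, 3677 and 6213 coding bases, against 274 to 563 in the longest coding exon of the other 5 members.

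**Figure D1:**
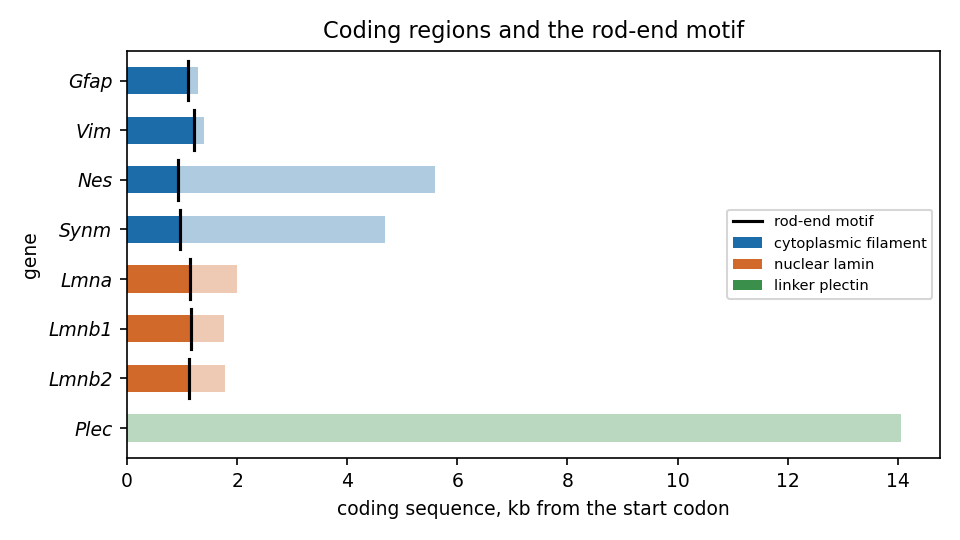
Coding sequence of each member in kb from the start codon, with the part up to the rod-end motif in full colour, the part after it in pale colour and the motif as a black bar (Plec has no match). The motif lies near the same distance from the start in all 7 filament genes, at 930 to 1221 bases, and Nes and Synm differ from the others in the length that follows.

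Among the cytoplasmic filament genes, Gfap and Vim lay near the typical ratio. Synm and Nes lay far under it, and they were 0.86 apart from each other on the log2 scale. In the authors' deposited table, Gfap (chr11:102887336-102900912), the defining filament of astrocytes, stood at a log2 ratio of 1.11, or 2.15-fold higher in the optimized extraction. Vim (chr2:13573927-13582826), its partner in the same filaments, stood at 1.13 in the authors' deposited table, or 2.19-fold higher. Both lay close to the median of all shared genes, 1.09, with 52.8% of shared genes below Gfap and 56.2% below Vim. The difference between them, 0.02, cannot be set against an error.

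Nes and Synm had much lower ratios than Gfap and Vim. Nes (chr3:87971078-87980451) stood at -0.52 in the authors' deposited table, so its value in the optimized extraction was 0.698 of that in the standard extraction. That is the 6th lowest of all 13278 shared genes and the only member below 0, where 0.392% of shared genes lay. It is also the only member at least 2-fold below the median of all shared genes, where 0.587% of them lay. Synm (chr7:67730160-67759742) stood at 0.34 in the authors' deposited table, 1.27-fold higher in the optimized extraction, and stood 229th from the lowest. Relative to the median of all shared genes, the log2 ratio of Nes was -1.61 and that of Synm -0.75. On the opposite strand of Synm lies Ttc23, which stood at 1.34 in the authors' deposited table. The library kit was stranded, but whether strand was used in counting is not given in those sources.

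**Figure D2:**
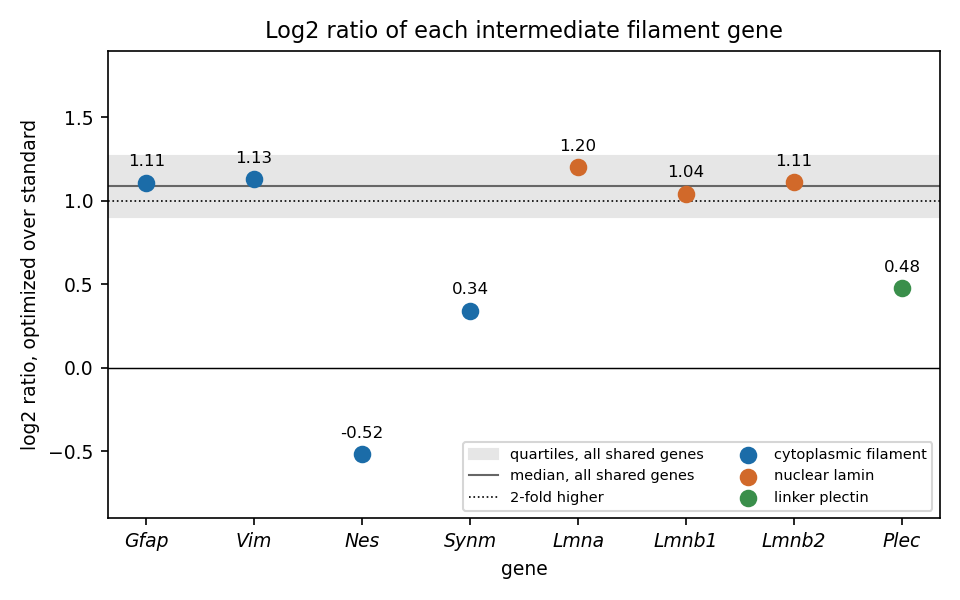
Log2 ratio of optimized over standard extraction for each member (points, coloured by subgroup; 1 value per gene, no error), with the median (line) and quartiles (band, 0.90 to 1.27) of all 13278 shared genes. Gfap, Vim and the 3 lamin genes lie inside the band between 1.04 and 1.20, whereas Plec at 0.48, Synm at 0.34 and Nes at -0.52 lie under it.

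The lamin genes had nearly the same ratio. Lmna (chr3:88480147-88509956), which encodes the A-type lamins, stood at 1.20 in the authors' deposited table, the highest ratio of the 8 members and 2.30-fold higher in the optimized extraction. The B-type lamin genes stood at 1.04 for Lmnb1 and 1.11 for Lmnb2 (chr10:80901203-80918245) in the authors' deposited table, 2.06-fold and 2.16-fold higher. The lamins spanned 0.16 on the log2 scale, a range that also holds Gfap and Vim. The quartiles of all shared genes lay 0.36 apart, but a range over 3 genes and a distance between quartiles are unlike measures. Lmnb1 was the only lamin under the median of all shared genes, by 0.05.

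Lamin A precursor and the B-type lamins end in a CaaX box, the signal for farnesylation, which anchors them in the nuclear membrane. The last 30 coding bases of Lmna and Lmnb2 are given with the 4 codons of this box in capitals, from chr3:88482077-88482351 (spliced) and chr10:80902862-80902891, both on the minus strand of GRCm38, since the box sets these proteins apart from the cytoplasmic filaments.
Lmna: agccagagctcccagaacTGCAGCATCATG
Lmnb2: aggactacctcaaggggcTGCCGACTGATG

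Plectin lay under the lamins and nearest to Synm, which stood 0.13 lower on the log2 scale, and far above Nes. Plec (chr15:76170974-76232574) stood at 0.48 in the authors' deposited table, 1.39-fold higher in the optimized extraction and 424th from the lowest of all shared genes. Relative to the median of all shared genes it stood at -0.61. It has 32 exons in the transcript used and 21 annotated coding transcripts, and its span overlaps Parp10 on the same strand, which stood at 1.10 in the authors' deposited table. How reads that fall in the overlap were counted is not stated.

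The spread inside the cytoplasmic subgroup, 1.65 on the log2 scale, was larger than the difference between the subgroups. The median log2 ratio was 0.72 for the 4 cytoplasmic filament genes and 1.11 for the 3 lamin genes, a difference of -0.39. Plec stood at -0.64 relative to the lamin median. The cytoplasmic median stands for none of its genes, however, because no value lay between Synm at 0.34 and Gfap at 1.11. Without Nes the cytoplasmic median differed from the lamin median by -0.0045, without Synm also by -0.0045, and without both, an alternative chosen after seeing the data, by 0.0070. In order from the highest, the deposited log2 ratios ran Lmna, Vim, Lmnb2, Gfap, Lmnb1, Plec, Synm and Nes. The first 5 are within 0.16 of each other, Plec follows 0.57 below Lmnb1, and Nes lies 0.86 below Synm.

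The members were also counted beside all shared genes. At least 2-fold higher values in the optimized extraction were listed for 5 of 8 members in the authors' deposited table, where 63.0% of all shared genes had such values. At a 1.5-fold threshold the count was again 5 of 8, beside 94.6% of all shared genes. Lmnb1, at 1.04, was the lowest member past that fold and Plec, at 0.48, the highest short of it. Ratios at least 0.5 under the median of all shared genes on the log2 scale belonged to 3 of 8 members and to 5.45% of shared genes, and ratios within 0.15 of that median to the other 5 and to 42.2% of shared genes. Because the members were chosen with these ratios known, nothing is read from these shares.

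**Figure D3:**
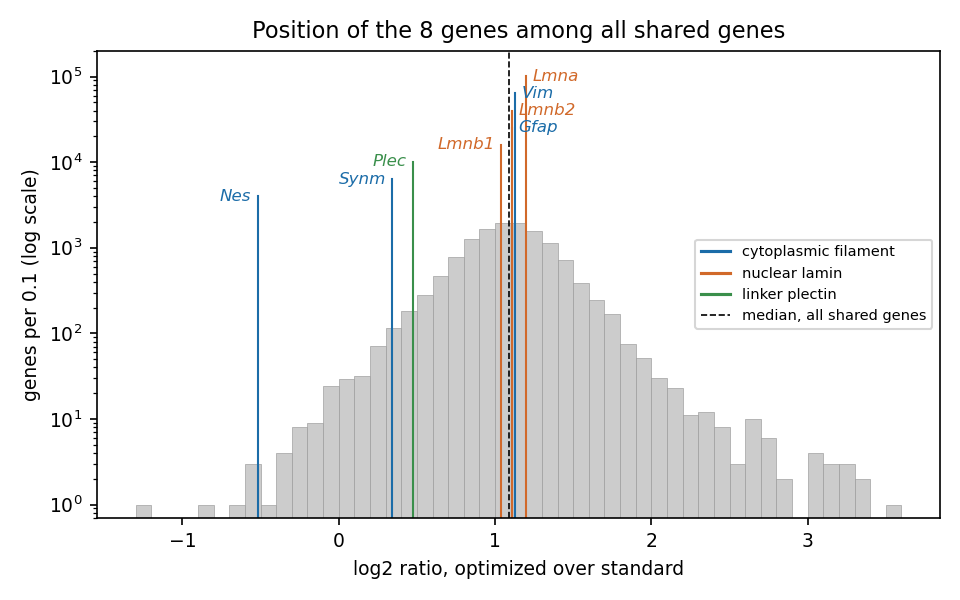
Distribution of the log2 ratio over all 13278 shared genes (grey bars of width 0.1, number of genes on a log axis) with each member as a coloured line, whose height only separates the labels. Nes at -0.52 lies in the sparse lower tail, Synm and Plec on the lower flank, and the other 5 around the dashed median of 1.09.

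The 3 members with low ratios are the 3 with the longest coding sequences, which the choice of members did not use. When coding genes were ordered by coding length and cut into 10 bins of about equal size, Gfap and Vim fell in bin 5, the lamins in bin 7, and Nes, Synm and Plec in bin 10, the longest. The median ratio of all genes in a bin moved little over these bins. The median log2 ratio was 1.06 in bin 5, 1.07 in bin 7 and 1.03 in bin 10 (1260 genes with coding sequences of 3573 bases or more, quartiles 0.86 and 1.22), whereas bin 1, the shortest, had 1.29. Across 12617 coding genes Spearman's rho between coding length and log2 ratio was -0.20, a description over genes of the same libraries that are not independent replicates. Within bin 10, Nes had the lowest ratio of all 1260 genes, Synm was 33rd from the lowest and Plec 61st. Relative to the median of that bin, the log2 ratios stood at -1.55 for Nes, -0.69 for Synm and -0.56 for Plec. Bin 10 reached 100401 bases with a median length of 4836, and 99.8% of coding genes were shorter than Plec. Its median therefore does not describe genes as long as Plec, and whether length bears on the members' ratios was not tested.

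**Figure D4:**
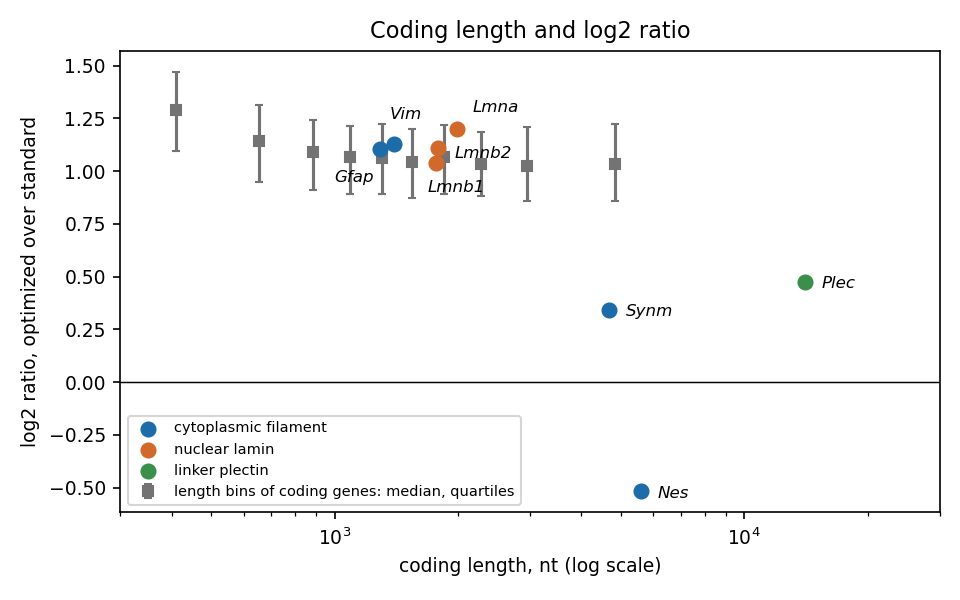
Log2 ratio of optimized over standard extraction against coding length in nt (log axis) for the 8 members (coloured points) and for 10 length bins of 12617 coding genes (grey squares at the median length and median ratio, bars to the quartiles). The bin medians stay between 1.02 and 1.29, and Nes, Synm and Plec lie under the bin that holds them.

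Other gene features set the low members apart less evenly. Nes and Synm have 4 exons each, and 82.4% and 78.5% of their coding sequence lies in 1 exon, while Plec, with 44.2% in its longest coding exon, has 32 exons. The 3′ untranslated region, counted with the stop codon, measures 424 bases in Nes, 3070 in Synm, the longest of the 8 members, and 1197 in Plec. It measures 1344 bases in Gfap, 315 in Vim and 779 to 1498 in the lamins. GC content of the coding sequence was 55.3% in Nes, 56.4% in Synm and 61.6% in Plec, within or next to the 56.2% to 62.2% of the other members. None of the members was in any of the 6 ontology or pathway lists that the authors deposited.

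Few other intermediate filament genes were listed, and most lay under the median of all shared genes. Of 60 further annotated filament genes, keratins and neurofilaments included, 6 were shared and 1, the lens filament gene Bfsp1, was standard-only. The neurofilament genes Nefl and Nefm, whose annotated spans overlap on opposite strands, stood at 0.36 and 0.64 in the authors' deposited table. Iffo2 stood at 0.77, Iffo1 at 0.95 and the syncoilin gene Sync at 1.08 in the authors' deposited table. The span of Iffo1 overlaps Gapdh and that of Sync overlaps Rbbp4, each on the opposite strand. Gapdh stood at 1.29 and Rbbp4 at 1.20 in the authors' deposited table. Krt10, an epidermal keratin gene, went the other way at 2.52 in the authors' deposited table, at least 2-fold above the median of all shared genes, where 0.678% of them lay.

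Among the plakin relatives of plectin, 3 of 4 shared genes lay under the median of all shared genes and Ppl above it. The crosslinker genes Macf1 and Dst stood at 0.56 and 0.59 in the authors' deposited table, the desmosome linker gene Dsp at 0.71 and the periplakin gene Ppl at 1.25, and Evpl was optimized-only. The list median was 0.65 over 4 shared genes, and 1 of 4 was at least 2-fold higher in the optimized extraction, beside 63.0% of all shared genes.

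Genes that act with the lamins covered a wider range than the lamins themselves. They are also more numerous, and a range tends to widen with the number of genes. All 16 genes of lamina partners, such as inner membrane proteins, the LINC complex and the nuclear basket, were shared, with a median log2 ratio of 1.03, and 9 of 16 were at least 2-fold higher, beside 63.0% of all shared genes. The authors' deposited table listed the nesprin gene Syne1 lowest at 0.54 and the nuclear pore gene Nup153 highest at 1.44. Of the genes that process the CaaX box, the farnesyltransferase subunit genes Fnta and Fntb stood at 1.15 and 0.73 in the authors' deposited table. Fntb overlaps Churc1 on the same strand, which stood at 2.12 in the authors' deposited table. The proteases Rce1 and Zmpste24 stood at 0.58 and 0.68 and the methyltransferase Icmt at 1.17 in the authors' deposited table. Their median was 0.73, with 2 of 5 at least 2-fold higher, again beside 63.0%.

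Kinases, chaperones and other enzymes that modify or remodel filaments were centred on the median of all shared genes. The 16 genes had a median log2 ratio of 1.10, and 10 of 16 were at least 2-fold higher, close to the 63.0% of all shared genes. The authors' deposited table listed Padi2, the peptidylarginine deiminase of brain, lowest at 0.25 and the kinase gene Rock2 highest at 1.44. Genes of desmosomes, costameres and matrix attachment, to which filaments are tied, had a median of 0.89 over 14 shared genes, 5 of them at least 2-fold higher, beside the same 63.0%. Their ends in the authors' deposited table were the desmocollin gene Dsc2 at 0.36 and the plakophilin gene Pkp4 at 1.60.

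The other cytoskeletal systems differed in their medians. The 20 actin genes had a median log2 ratio of 1.24 and 17 of them were at least 2-fold higher in the optimized extraction, whereas the 19 shared microtubule genes had a median of 1.03 with 12 at least 2-fold higher. Over all shared genes 63.0% were at least 2-fold higher, a share that the microtubule genes came close to. Among actin genes the authors' deposited table listed the non-muscle myosin gene Myh9 highest at 1.92 and the moesin gene Msn lowest at 0.81. Among microtubule genes it listed Map1a highest at 1.32, and in the authors' deposited table the cytoplasmic dynein heavy chain gene Dync1h1 was lowest at 0.08. Dync1h1 was, with Krt10 and Nes, 1 of the genes in these lists at least 2-fold away from the median of all shared genes.

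**Figure D5:**
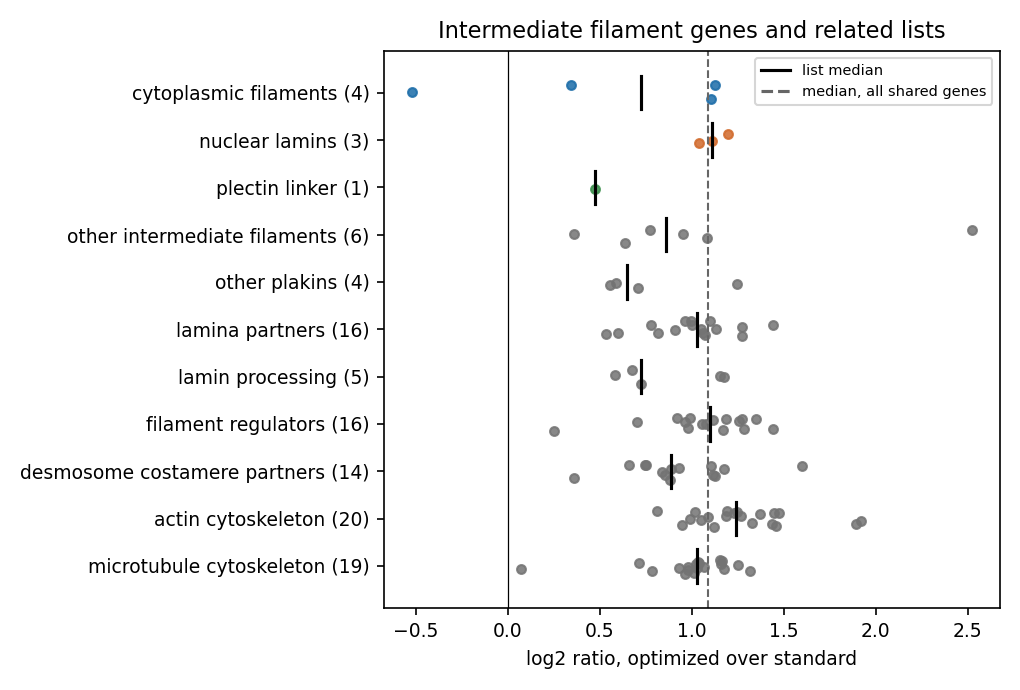
Log2 ratio of optimized over standard extraction for each shared gene (points; vertical scatter within a row only separates them) in the member subgroups (coloured) and in related lists (grey), with the number of shared genes in brackets, list medians as black bars and the median of all shared genes (1.09) as a dashed line. The actin list has the highest median, 1.24, and Nes at -0.52 is the lowest point of all.

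The astrocyte label was checked against marker genes. All 12 astrocyte markers were shared, with a median log2 ratio of 0.92 and ends at Slc1a3 (0.61) and Glul (1.18) in the authors' deposited table. Neural progenitor markers, of which nestin is another, were shared for 7 of 9 genes, with a median of 1.16 and the lowest at Prom1 (0.62) in the authors' deposited table, so Nes lay under all of them. Fewer markers of other cell types were shared: 3 of 10 for neurons, 2 of 8 for microglia, 6 of 9 for the oligodendrocyte lineage and 4 of 6 for endothelium. For fibroblasts and pericytes all 8 were. The neuronal genes Syp and Syn1 were standard-only. The medians of the shared markers were 0.64 for neurons, 0.68 for microglia, 0.94 for the oligodendrocyte lineage, 0.69 for endothelium and 0.66 for fibroblasts and pericytes. Vim and Nes are also made by several of these cell types, and the part such cells had in the members' ratios was not tested. In bulk lysates, fewer cells of a type and less RNA per cell cannot be told apart.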

How the data were processed

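The processing notes of the submitters name TopHat2, featureCounts and mm10, with no version. Strand setting, annotation, library scaling and the rule for calling a gene detected are not stated in these sources. Per the file headers, what the authors deposited is a log2 fold change for each shared gene (optimized against standard) and lists, without values, of genes from 1 extraction. Depth is unknown, so no interval is given, and the tests planned for values per library could not be run. Unmatched columns of per-sample values numbered 0.

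From the log2 values ranks, medians and counts past a 2-fold threshold were computed. Identifiers matched GENCODE M21 (GRCm38, the assembly of mm10) for 13273 of 13278 shared genes, and 12617 had a coding length, taken from 1 transcript per gene (APPRIS principal, then longest coding sequence). The members and lists were chosen with earlier results of these data known. Genes named were all members, the ends of each list, genes at least 2-fold from the median of all shared genes, and whole lists of up to 6 shared genes, of which marker lists are given by an end or their median; 1 gene that the rule names and some rod-end sequences are not reported here. Alternatives were other centring, fold and summary choices. Tools were pandas 2.3.3, numpy 2.4.6, Biopython 1.88, scipy 1.17.1 and matplotlib 3.10.9 under Python 3.11.15.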

Additional observations from a re-analysis of the deposited data

How the results depend on the processing

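No paired analysis was possible because the tables used here hold 1 ratio per gene and no value per library; for the same reason no library could be left out. Centred on the median of protein-coding genes, on the mean of all shared genes or on the median of genes in the same coding-length bin, each of the 8 members kept its side of the centre and moved by less than 0.1 on the log2 scale. With the ratios as deposited, 5 members were at least 2-fold higher and 5 at least 1.5-fold higher. With ratios centred on the median of all shared genes, 0 members were at least 2-fold higher. The difference of cytoplasmic filament and lamin genes, -0.39 by medians, was -0.60 by means and -0.35 without Lmna. It was -0.0045 without Nes and -0.0045 without Synm, and it reversed to 0.0070 without both, an alternative chosen after seeing the data. Without errors or depth, ratios that differ by a few hundredths cannot be ordered.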

Other observations

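Nes, Synm and Plec each carry a coding exon of at least 3000 bases, and the ratios of all coding genes with such exons were summarized. This limit was chosen after the members' values were seen, so the comparison is a description. Whether such exons bear on the members' ratios was not tested. The 163 genes with such an exon had log2 ratios with median 1.14 and quartiles 0.90 and 1.31, and 64.4% were at least 2-fold higher in the optimized extraction. The 12454 other coding genes had a median of 1.08 (quartiles 0.90 and 1.25), and 62.3% were at least 2-fold higher. Ordered from the lowest ratio, Nes was 1st of the 163, Synm 7th and Plec 11th. The genes between Nes and Synm were Ttn at 0.04, Pclo at 0.07, Zfhx2 at 0.24, Zdbf2 at 0.30 and Pkdrej at 0.30 in the authors' deposited table. Of the other listed cytoskeletal genes with such an exon, the plakin genes Macf1, Dst and Dsp were 12th, 15th and 22nd from the lowest, at 0.56, 0.59 and 0.71 in the authors' deposited table. The microtubule-associated protein gene Map2 was 23rd at 0.72, while Map1b was at 1.02 and Map1a at 1.32 in that deposited table of the authors.

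Nes and Lmna lie 499.7 kb apart on chromosome 3, and their deposited log2 ratios, -0.52 and 1.20, are the lowest and the highest of the 8 members.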
